A study of Mus musculus with 12 samples.

Results

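The expression of 10 genes of melanoma phenotype switching and the epithelial to mesenchymal transition (EMT) was followed in B16F10 cells, a mouse melanoma line, after treatment with DAC, SFN or both drugs. The 10 genes were named by symbol, with earlier results of these data known, and they are 10 of the 24421 gene symbols in the count tables. They comprise the transcription factors Snai2, Zeb1, Zeb2 and Twist1, the mesenchymal proteins Vim and Fn1, the cadherins Cdh1 and Cdh2, and the receptors Axl and Ngfr. Levels are given in CPM, counts scaled to a library size of 1e+06. Of the 10 genes, 7 reached 1 CPM in 3 or more of the 12 libraries and were tested. Zeb1 and Ngfr lay below this level, and Twist1 had no count in any library.

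Each of the 4 groups held 3 independent biological repeats of the cell line. Control cells were given DMSO, at 0.025% by the labels. DAC (5-aza-2′-deoxycytidine, an inhibitor of DNA methylation) was given as single treatment at 25 nM for 72 h. SFN (sulforaphane, an isothiocyanate from cruciferous vegetables) was given for the last 48 h, and the labels give its dose as 5 nM in the single treatment and as 5 µM in the combination treatment, which received DAC at 25 nM for 72 h as well. The methods of the study give the same micromolar SFN dose in the single and the combination treatment. This conflict was not settled, and it bears on the comparison of the combination with SFN alone and on the test of interaction. RNA was sequenced as polyadenylated RNA, and each library held between 15880957 and 27291436 counts on genes. B16F10 is an established line kept in culture, so no other cell types of a tumour were present by design. The melanocytic genes of the line were expressed in every library, except Ednrb with at most 1 count. The sum over 16 markers lay between 23727 and 33029 CPM. In bulk RNA, fewer cells of a type and less RNA per cell cannot be told apart.

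In EMT, transcription factors of the Snail, Zeb and Twist families bind E-box sequences, repress epithelial genes such as that of E-cadherin and accompany a gain of N-cadherin, vimentin and fibronectin. Melanocytes are not epithelial cells of the classical kind, and in melanoma a related switch is described between a differentiated state, high in the transcription factors MITF and SOX10, and invasive or undifferentiated states marked by AXL or by NGFR. In that switch, SNAI2 and ZEB2 are usually linked with the differentiated state, and ZEB1 and TWIST1 with the invasive one.

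In control cells, Zeb2 and Cdh2 were expressed well above their relatives Zeb1 and Cdh1, which had few counts. To compare genes, CPM was divided by the length of the merged exons, such as 4.743 kb for Vim and 19.942 kb for Zeb2. The order below depends on these lengths, and other lengths were not tested. On this scale of CPM per kb, Vim was the most abundant at 352 ± 45.8 (SD, n = 3). Next in order were Cdh2 at 17.4 ± 0.190, Fn1 at 15.2 ± 8.24 and Zeb2 at 9.87 ± 0.875 CPM per kb, and the replicate ranges of Cdh2 and Fn1 overlapped, as did those of Fn1 and Zeb2. Axl followed at 3.54 ± 1.92 and Snai2 at 1.48 ± 0.475 CPM per kb. Cdh1 lay at 0.244 ± 0.108 and Ngfr at 0.114 ± 0.0533 CPM per kb, and their ranges overlapped. Zeb1 was at 0.0103 ± 0.0113 CPM per kb, with no count in replicate 3, so it overlapped with Twist1, which was last with no count. The other neighbours in this order did not overlap in the 3 control libraries.

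**Figure D1:**
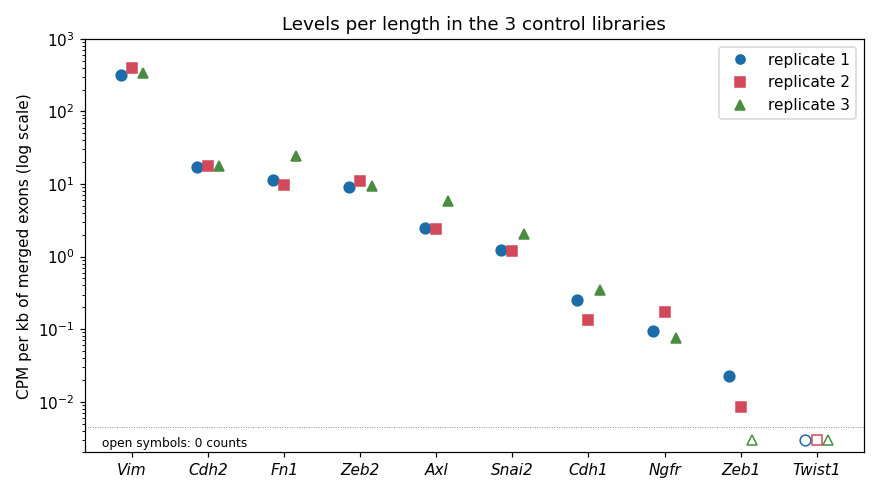
Levels of the 10 genes in the 3 control libraries, in CPM per kb of merged exons on a log axis, 1 symbol per replicate, with open symbols for libraries with 0 counts. Vim stands at the top at 352 CPM per kb, Cdh2, Fn1 and Zeb2 between 9.87 and 17.4 on average, and Twist1 had no count.

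The promoters of Axl, the gene with the largest fold change of the 7 tested genes, and of Twist1, the gene with no count, are shown for their content of the dinucleotide CG, the target of DNA methylation that DAC inhibits. Each line gives the 250 bases before the RefSeq gene start (build GRCm38.p6), 5′ to 3′ on the strand of the gene, with every CG in capitals.
Axl, chr7:25788734-25788983, minus strand: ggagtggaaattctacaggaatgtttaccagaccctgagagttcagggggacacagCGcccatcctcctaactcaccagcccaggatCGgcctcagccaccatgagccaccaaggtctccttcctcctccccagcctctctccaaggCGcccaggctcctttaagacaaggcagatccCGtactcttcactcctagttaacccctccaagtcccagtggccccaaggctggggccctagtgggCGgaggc
Twist1, chr12:33957421-33957670, plus strand: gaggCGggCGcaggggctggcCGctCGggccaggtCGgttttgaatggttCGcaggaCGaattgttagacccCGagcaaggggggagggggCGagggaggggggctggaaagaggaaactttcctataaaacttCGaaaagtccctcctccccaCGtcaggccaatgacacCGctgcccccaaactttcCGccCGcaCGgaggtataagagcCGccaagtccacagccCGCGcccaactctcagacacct
The Axl promoter held 5 CG and 60% G or C, and 49.6% of the 32851 mouse promoters in the table had as few CG or fewer. The Twist1 promoter held 18 CG and 62.4% G or C, and 80.3% of all promoters had as few or fewer. The median over all promoters was 6 CG. RefSeq promoters were at hand for 5 of the 10 genes, and the others of these held 8 CG (Vim), 16 CG (Ngfr) and 6 to 14 CG (4 starts of Zeb2). The E-box CAGGTG, or CACCTG on the other strand, that Snail and Zeb factors bind was in none of the 8 promoters of these genes in this window. It was in 17.22% of all promoters. The 8 promoters came from 5 genes and included 4 starts of Zeb2, some with overlapping windows, so they are too few for a contrast with that share. No promoter was at hand for Cdh1. DNA methylation was not measured in these data.

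Among the 7 tested genes, Axl and Fn1 rose with the combination treatment, Axl rose with SFN single treatment, and no gene fell. For a single comparison, a gene was called changed when its p-value from the quasi-likelihood F-test of edgeR, fitted with the replicate number as a block and adjusted by Benjamini-Hochberg over all 11638 genes tested, was under 0.05. With DAC, 0 of the 7 genes were called, where 0.180% of all genes were called higher and 0% lower (3 of the 7 had an unadjusted p under 0.05, against 10.1% of all genes, and DESeq2 called 0 of the 7). Over all genes, 470 were lower with DAC at an unadjusted p under 0.05 and DESeq2 called 7 lower. With SFN, 1 of the 7 was higher and 0 lower, where 8.27% of all genes were higher and 5.65% lower. With the combination treatment, 2 of the 7 were higher and 0 lower, where 17.0% of all genes were higher and 14.7% lower. At an unadjusted p under 0.05, 1 of the 7 genes differed with SFN and 3 with the combination treatment, where 28.8% and 42.4% of all genes did. DESeq2 called 1 of the 7 in each of these comparisons, where it called 1618 and 3433 of all genes. The 3 with the combination treatment were Axl, Fn1 and Vim, and all were higher. Read against the background of all genes, counts of 1 and 2 among 7 genes are no result about the genes as a set. No gene of the 7 passed a fold change above 2 as well, a call that 0.0344% of all genes reached after DAC, 1.28% after SFN and 2.66% after both drugs. The median log2 fold change of the 7 genes was 0.024 after DAC, 0.037 after SFN and 0.021 after both drugs, beside medians over all tested genes of 0.0049, 0.0040 and 0.0078.

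**Figure D2:**
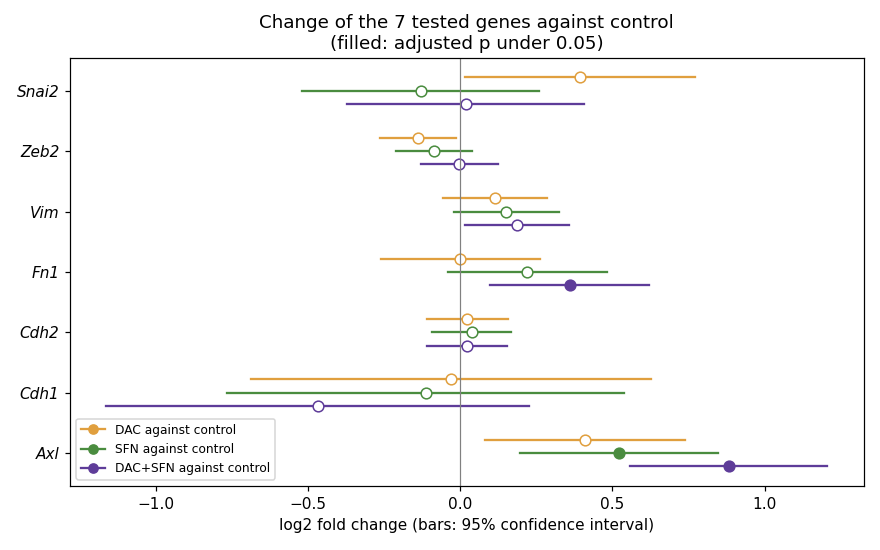
Log2 fold change against control of the 7 tested genes (x axis, with bars for the 95% confidence interval) for DAC, SFN and DAC+SFN, with filled symbols at an adjusted p under 0.05. Axl is filled for SFN (0.52) and DAC+SFN (0.88) and Fn1 for DAC+SFN (0.36), and the intervals of Cdh1 are the widest.

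Axl encodes a receptor tyrosine kinase of the TAM family (Tyro3, Axl, Mertk) that is bound by GAS6 and marks invasive, therapy-resistant melanoma states. In mm10 it lies on chromosome 7 from 25757273 to 25788705 on the minus strand (Entrez Gene 26362). Across replicates 1, 2 and 3, Axl was at 12.5, 11.96 and 29.0 CPM in control and at 17.6, 15.3 and 36.9 CPM with DAC. It was at 16.5, 24.0 and 33.2 CPM with SFN and at 23.8, 30.0 and 39.7 CPM with the combination treatment. Replicate 3 was the highest of every group, so the groups overlapped, but within each replicate number every treated library lay above its control. The combination treatment raised Axl 1.84-fold, a log2 fold change of 0.88 (SE 0.15, 95% interval 0.56 to 1.21, adjusted p = 0.000608 in edgeR), with log2 differences of 0.92, 1.32 and 0.45 in replicates 1, 2 and 3. This call was kept in 12 of 12 fits that left out 1 library, with log2 fold changes from 0.73 to 1.04.

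SFN single treatment raised Axl by 0.52 on the log2 scale (SE 0.15, edgeR adjusted p = 0.0336), with log2 differences of 0.40, 1.00 and 0.20 in the 3 replicates. The call for Axl with SFN passed in 8 of 12 fits that left out 1 library. The edgeR adjusted p for Axl was 0.106 without control replicate 1, 0.210 without control replicate 2, 0.0537 without SFN replicate 1 and 0.206 without SFN replicate 2. With DAC the estimate for Axl was 0.41 (SE 0.15, 95% interval 0.082 to 0.74, edgeR adjusted p = 0.371), higher in 3 of 3 replicates by 0.49, 0.35 and 0.35, and it did not pass. In a fit of DAC and control libraries alone, the edgeR adjusted p for Axl was 0.00525.

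The combination treatment was compared with each single treatment as well. Compared to DAC, Axl was higher by 0.47 (SE 0.15, edgeR adjusted p = 0.0431), and it was the single gene of the 7 to pass, where 9.55% of all genes were higher and 6.60% lower. That call passed in 6 of 12 fits that left out 1 library, with adjusted p-values of Axl from 0.00728 to 0.215 in edgeR, and was lost without control 1 (0.0598), DAC 1 (0.0856), DAC 2 (0.215), SFN 1 (0.0577), DAC+SFN 1 (0.149) or DAC+SFN 2 (0.164). At a fold change above 2 as well, 0 of the 7 genes and 0.928% of all genes passed against DAC. Compared to SFN, 0 of the 7 genes passed, where 0.937% of all genes were higher, 0.670% lower and 0.112% changed above 2-fold. DESeq2 called 0 of the 7 genes against SFN and 388 of all genes. At an unadjusted p under 0.05, 17.8% of all genes differed from SFN, and 1 of the 7 did. This gene was Axl, at 0.36 above SFN (SE 0.15, 95% interval 0.047 to 0.67, edgeR adjusted p = 0.211) and higher in 3 of 3 replicates. Axl compared to SFN had an adjusted p of 0.0466 in edgeR without DAC+SFN replicate 3. The interaction of the drugs, the part of the combined log2 change beyond the sum of both single changes, was -0.050 for Axl (SE 0.21, 95% interval -0.50 to 0.40). No gene passed for the interaction in edgeR (0 of the 7 genes, 0% of all 11638), where 5.87% of all genes and 1 of the 7 had an unadjusted p under 0.05 and DESeq2 called 0 genes. The gene with the unadjusted p was Zeb2.

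Of the other TAM receptors and their ligands, 3 of 4 genes were tested and 1 rose with the combination treatment, with a median log2 fold change of -0.16 beside 0.0078 over all genes. Pros1, which encodes protein S, a ligand of the sister receptors Tyro3 and Mertk, rose from 30.6 ± 2.79 to 41.2 ± 2.98 CPM (SD, n = 3). Its log2 fold change was 0.42 (SE 0.073, edgeR adjusted p = 0.000634), and Pros1 with SFN was at 0.41 (edgeR adjusted p = 0.00193). Tyro3 was at -0.16 (edgeR adjusted p = 0.231) and Mertk at -0.21 (edgeR adjusted p = 0.449) on the log2 scale with the combination treatment. Gas6, the gene of the main AXL ligand, had at most 5 counts in any library.

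Fn1 encodes fibronectin, a glycoprotein of the extracellular matrix (chromosome 1 from 71585520 to 71653200, minus strand, Entrez Gene 14268). In replicates 1, 2 and 3 it was at 131, 114 and 288 CPM in control and at 120, 131 and 279 CPM with DAC. It was at 127, 196 and 274 CPM with SFN and at 154, 193 and 314 CPM with the combination treatment. The libraries of replicate 3 were the highest in each group and the groups overlapped. The combination treatment raised Fn1 1.28-fold (log2 fold change 0.36, SE 0.12, edgeR adjusted p = 0.0361), with differences of 0.23, 0.76 and 0.12 in the 3 replicates. The call for Fn1 passed in 9 of 12 fits that left out 1 library. Without control replicate 2 the estimate for Fn1 was 0.17 (edgeR adjusted p = 0.258), without DAC+SFN replicate 1 it was 0.36 (edgeR adjusted p = 0.0947) and without DAC+SFN replicate 2 it was 0.29 (edgeR adjusted p = 0.127). By the Wald test of DESeq2, Fn1 had an adjusted p of 0.0876. With DAC, Fn1 differed by 0.00048 from control (SE 0.12, 95% interval -0.26 to 0.26), and with SFN by 0.22 (SE 0.12, edgeR adjusted p = 0.251), of which replicate 2 gave 0.79 and the others -0.047 and -0.074. Compared to DAC, Fn1 was higher by 0.36 in the combination (SE 0.12, edgeR adjusted p = 0.0586), in 3 of 3 replicates.

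The list of fibronectin receptors held integrins, a syndecan and cytoplasmic partners of integrins, and 10 of its 11 genes were tested. With the combination treatment 6 rose and the others did not pass, with a median log2 fold change of 0.35, and with SFN 6 rose as well, with a median of 0.29 beside 0.0040 over all genes. Of all genes, 17.0% were called higher with the combination treatment and 8.27% with SFN. Itgav, the integrin alpha V subunit, rose from 174 ± 6.55 to 243 ± 12.3 CPM, by 0.48 on the log2 scale (SE 0.057, edgeR adjusted p = 3.21e-05). Itga5, which pairs with the beta 1 subunit in the classical fibronectin receptor, rose by 0.48 (edgeR adjusted p = 0.000229) and its partner Itgb1 by 0.34 (edgeR adjusted p = 0.00067). Itga8 rose by 1.13 (edgeR adjusted p = 0.000864), the largest change of the list.

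Vim encodes vimentin, the intermediate filament of mesenchymal cells and of melanocytes (chromosome 2 from 13573927 to 13582826, plus strand, Entrez Gene 22352). In replicates 1, 2 and 3 it was at 1489, 1912 and 1614 CPM in control and at 1471, 2289 and 1745 CPM with DAC. It was at 1484, 2544 and 1679 CPM with SFN and at 1606, 2637 and 1608 CPM with the combination treatment. The libraries of replicate 2 were the highest in each group. The log2 fold change of Vim was 0.11 with DAC (SE 0.080, edgeR adjusted p = 0.675), 0.15 with SFN (SE 0.080, edgeR adjusted p = 0.227) and 0.19 after both drugs (SE 0.080, 95% interval 0.016 to 0.36, edgeR adjusted p = 0.0877), and none passed. Without DAC+SFN replicate 3, where the difference of Vim from control was -0.0055, the estimate was 0.26 and passed (edgeR adjusted p = 0.0209). Without control replicate 2 the estimate for Vim was 0.074 (edgeR adjusted p = 0.515), without DAC+SFN replicate 2 it was 0.11 (edgeR adjusted p = 0.364), and without all libraries of replicate number 2 it was 0.043 (edgeR adjusted p = 0.710).

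Of 24 other mesenchymal and matrix genes, 18 were tested. With the combination treatment 9 rose and 1 fell, with a median log2 fold change of 0.45, and with SFN 7 rose and 1 fell, with a median of 0.38. The share of all genes called higher was 17.0% with the combination treatment and 8.27% with SFN. With DAC the median was 0.20 beside 0.0049 over all genes. Sparc, a matrix glycoprotein gene, was at 999, 1649 and 1227 CPM in the control replicates and at 2199, 3786 and 2053 CPM with the combination treatment, without overlap. The log2 fold change of Sparc was 1.03 (SE 0.090, edgeR adjusted p = 2.95e-06). The matricellular gene Ctgf rose by 1.29 (edgeR adjusted p = 0.000151), Cyr61 by 1.10 (edgeR adjusted p = 0.00106) and Thbs1 by 0.98 (edgeR adjusted p = 0.000252). Loxl2, a lysyl oxidase gene, fell by 1.07 in the fit (edgeR adjusted p = 0.0376), with log2 differences of -2.34, 0.88 and -1.41 in replicates 1, 2 and 3, so that it was lower in 2 of 3.

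**Figure D3:**
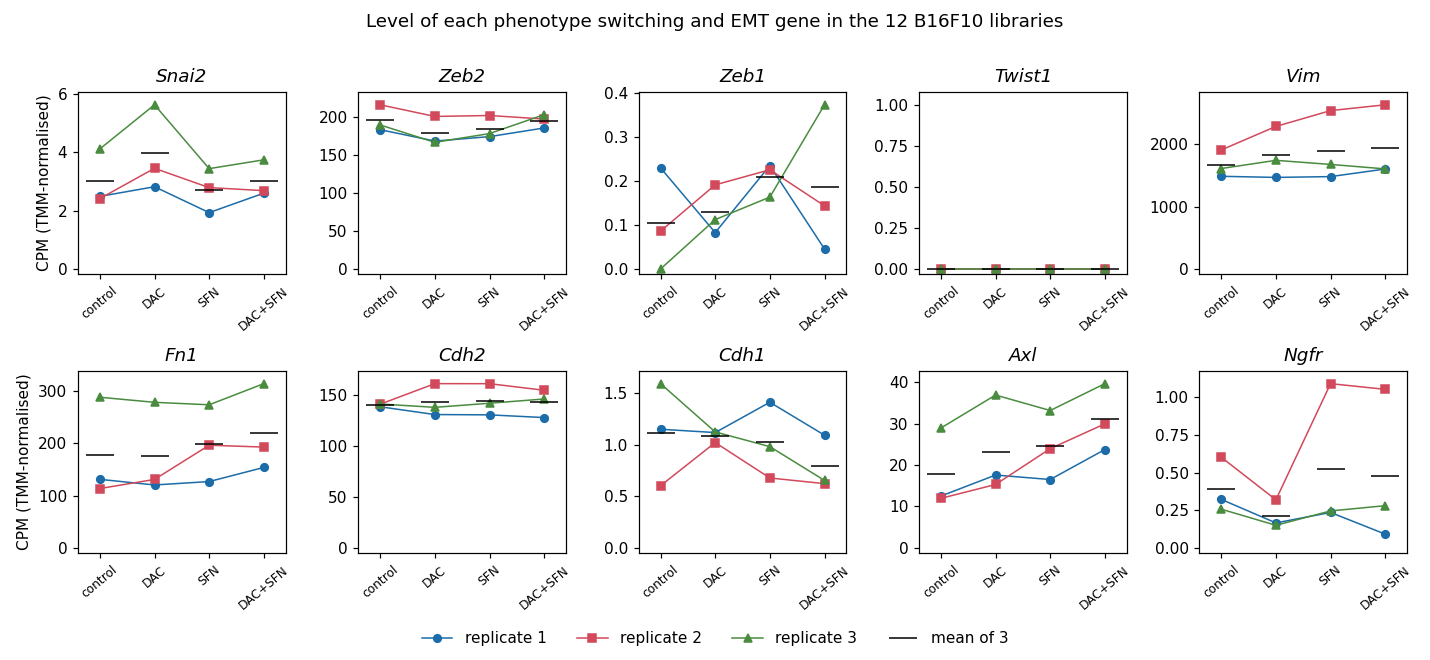
TMM-normalised CPM (y axis from 0) of each of the 10 genes in control, DAC, SFN and DAC+SFN (x axis), with 1 line per replicate number and a dash for the mean of 3. Axl with DAC+SFN lies above its control within each replicate, replicate 3 is the highest for Axl and Fn1, and Twist1 stays at 0.

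The cadherin pair differed in level, with Cdh2 far above Cdh1 per length in control. Cdh2 encodes N-cadherin, the cadherin of mesenchymal and neural cells (chromosome 18 from 16588877 to 16809246, minus strand, Entrez Gene 12558). In replicates 1, 2 and 3 it was at 138, 141 and 141 CPM in control, at 131, 161 and 138 CPM with DAC, at 130, 161 and 142 CPM with SFN and at 128, 155 and 146 CPM with the combination treatment. All groups overlapped. The log2 fold change of Cdh2 was 0.024 with DAC (edgeR adjusted p = 0.930), 0.037 with SFN (edgeR adjusted p = 0.740) and 0.021 after both drugs (SE 0.062, 95% interval -0.11 to 0.15, edgeR adjusted p = 0.823).

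Cdh1 encodes E-cadherin, the adhesion protein of epithelia, with which melanocytes also attach to keratinocytes (chromosome 8 from 106603351 to 106670246, plus strand, Entrez Gene 12550). It had between 13 and 31 counts per library, which limits its precision. Across replicates 1, 2 and 3, Cdh1 was at 1.15, 0.602 and 1.59 CPM in control and at 1.12, 1.02 and 1.12 CPM with DAC. It was at 1.41, 0.677 and 0.981 CPM with SFN and at 1.09, 0.623 and 0.654 CPM with the combination treatment. The groups overlapped, and Cdh1 with the combination treatment was at -0.47 (SE 0.33, 95% interval -1.16 to 0.23, edgeR adjusted p = 0.295), with differences of -0.069, 0.042 and -1.18 in the 3 replicates. The estimates for Cdh1 were -0.029 with DAC (edgeR adjusted p = 0.985) and -0.11 with SFN (edgeR adjusted p = 0.851).

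Of 20 other epithelial genes, 1 was tested, 6 had no count in any library, and Epcam, which encodes an epithelial adhesion protein, had at most 1 count. The tested gene was Tjp1, which encodes a scaffold of tight junctions that other cells express too, and it was at 102 ± 7.51 CPM in control. It fell with SFN by 0.22 on the log2 scale (SE 0.067, edgeR adjusted p = 0.0423) and was at -0.082 with the combination treatment (edgeR adjusted p = 0.380). Of 11 genes of cadherin partners, 8 were tested, and with the combination treatment 3 rose and 1 fell, with a median log2 fold change of 0.032. The alpha-catulin gene Ctnnal1 rose by 0.30 (edgeR adjusted p = 0.00178), Ctnnd1 (p120-catenin) by 0.26 (edgeR adjusted p = 0.00567) and Jup (plakoglobin) by 0.48 (edgeR adjusted p = 0.00637).

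Of the 4 transcription factors, Zeb2 was the one with the most counts, 50471 over the 12 libraries, and its homologue Zeb1 had 42. Zeb2 (chromosome 2 from 44983632 to 45117395, minus strand, Entrez Gene 24136) was at 184, 217 and 190 CPM in control replicates 1, 2 and 3 and at 169, 201 and 167 CPM with DAC. It was at 175, 203 and 179 CPM with SFN and at 186, 198 and 204 CPM with the combination treatment. With DAC, Zeb2 lay under its control in 3 of 3 replicates, by 0.12, 0.11 and 0.19 on the log2 scale, but the groups overlapped and the estimate of -0.14 (SE 0.059, unadjusted p = 0.0329, edgeR adjusted p = 0.432) did not pass. The estimates for Zeb2 were -0.087 with SFN (edgeR adjusted p = 0.353) and -0.0026 with the combination treatment (95% interval -0.13 to 0.12, edgeR adjusted p = 0.980). Zeb2 had the interaction term with the unadjusted p under 0.05, at 0.22 (SE 0.083, unadjusted p = 0.0173, edgeR adjusted p = 0.847). The antisense gene Zeb2os, on the opposite strand of Zeb2, had 25 to 53 counts per library, and the strand setting of the counting is not given in the sources used here.

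Zeb1 (chromosome 18 from 5591860 to 5775467, plus strand, Entrez Gene 21417) had 5, 2 and 0 counts in control replicates 1, 2 and 3 and 2, 3 and 3 with DAC. It had 5, 6 and 4 counts with SFN and 1, 3 and 8 with the combination treatment. A difference was not detectable at this depth, and in a fit without the filter on low counts the edgeR adjusted p of Zeb1 was 0.714 with SFN and 0.689 with the combination treatment. Twist1 (chromosome 12 from 33957671 to 33959829, plus strand, Entrez Gene 22160) had 0 counts in 12 of 12 libraries, which allows a level of up to 0.112 to 0.191 CPM per library (3 counts, counting error only).

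Snai2, which encodes the factor Slug, was detected in every library with 41 to 150 counts (chromosome 16 from 14705852 to 14709385, plus strand, Entrez Gene 20583). In replicates 1, 2 and 3 it was at 2.48, 2.41 and 4.11 CPM in control and at 2.82, 3.45 and 5.62 CPM with DAC. It was at 1.93, 2.78 and 3.43 CPM with SFN and at 2.59, 2.68 and 3.74 CPM with the combination treatment. Replicate 3 was the highest in each group and the groups overlapped. With DAC, Snai2 was higher in 3 of 3 replicates, by 0.17, 0.50 and 0.44, and the estimate of 0.39 (SE 0.18, unadjusted p = 0.042, edgeR adjusted p = 0.468) did not pass. In the combination it was 0.38 under DAC, lower in 3 of 3 replicates (estimate -0.38, SE 0.18, edgeR adjusted p = 0.165). Against control, Snai2 was at -0.13 with SFN (edgeR adjusted p = 0.691) and 0.018 with the combination treatment (95% interval -0.37 to 0.41, edgeR adjusted p = 0.954).

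Of 13 other EMT transcription factors, 6 were tested. Snai1, which encodes Snail, had at most 6 counts in any library, Prrx1 at most 2, Fosl1 at most 9, and Twist2 none. With the combination treatment 2 fell and the others did not pass, with a median log2 fold change of -0.18. Tcf3, which encodes the E2A proteins, was at 76.5, 87.3 and 96.8 CPM in control and at 69.7, 72.6 and 66.8 CPM with the combination treatment, without overlap. Its log2 fold change was -0.31 (SE 0.081, edgeR adjusted p = 0.00951). Sox9, a neural crest factor, fell by 0.41 (edgeR adjusted p = 0.0108) and with SFN by 0.50 (edgeR adjusted p = 0.00682).

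Ngfr encodes the p75 neurotrophin receptor, known as CD271, a marker of neural crest-like melanoma cells (chromosome 11 from 95568818 to 95587735, minus strand, Entrez Gene 18053). In replicates 1, 2 and 3 it had 7, 14 and 5 counts in control and 4, 5 and 4 counts with DAC. It had 5, 29 and 6 counts after SFN and 2, 22 and 6 after both drugs. Counts of Ngfr above 7 were found in replicate 2 alone, in the control, SFN and combination libraries. The mean over the groups was 0.203 CPM in replicate 1, 0.767 in replicate 2 and 0.233 in replicate 3. Without the filter on low counts, the edgeR adjusted p of Ngfr was 0.896 for DAC, 0.881 for SFN and 0.997 for both drugs. Of 15 other neurotrophin genes, receptors and partners, 4 were tested and 2 fell with the combination treatment. Ngfrap1, which encodes a protein that associates with the receptor, fell by 0.39 (edgeR adjusted p = 0.000284) and the receptor partner Maged1 by 0.30 (edgeR adjusted p = 0.000699). The ligand gene Bdnf was at 0.53 (edgeR adjusted p = 0.0706).

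The levels of the tested genes also differed among the replicate numbers. In a test chosen after the data were seen, 6 of the 7 tested genes differed among replicate numbers at an adjusted p under 0.05 in edgeR, where 33.9% of all genes did. Averaged over the 4 groups, Axl was at 17.6, 20.3 and 34.7 CPM in replicates 1, 2 and 3 (edgeR adjusted p = 8.15e-05) and Fn1 at 133, 158 and 289 CPM (edgeR adjusted p = 4.76e-06). Vim was at 1512, 2345 and 1661 CPM (edgeR adjusted p = 2.63e-05). Replicate 3 was thus high for Axl, Fn1 and Snai2 (edgeR adjusted p for Snai2 = 0.00342) and replicate 2 for Vim. Cdh2 (edgeR adjusted p = 0.0133) and Zeb2 (edgeR adjusted p = 0.0164) differed less, and Cdh1 did not pass (edgeR adjusted p = 0.109). The difference between replicates 3 and 1 was 1.01 for Axl and 1.12 for Fn1 on the log2 scale. This was larger than any log2 fold change of these genes with treatment in the fit of all 12 libraries. Within replicate 2 alone, Axl differed by 1.32 with the combination treatment. The library numbers run with the replicate numbers, so a library batch and the biological repeat cannot be told apart.

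Without the replicate block, no call on the 7 genes remained in edgeR. The adjusted p of Axl was then 0.617 with SFN, 0.210 with the combination treatment and 0.644 for the combination against DAC, and that of Fn1 with the combination treatment was 0.670. The same-numbered samples deviated together over all genes, with correlations of 0.270 to 0.732 in 18 pairs. When all 4 libraries of a replicate number were left out, the call of Axl with the combination treatment passed in each of the 3 fits (edgeR adjusted p from 0.000168 to 0.0266). The call of Fn1 was lost without replicate number 1 (edgeR adjusted p = 0.118) and 2 (edgeR adjusted p = 0.120), and so was that of Axl with SFN (edgeR adjusted p = 0.157 and 0.264).

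After the mean of each replicate number was removed, Axl, Fn1 and Vim varied together over the 12 libraries. Pearson's r was 0.858 between Axl and Fn1, 0.855 between Vim and Fn1 and 0.841 between Vim and Axl. The points share libraries and treatments, and as measured the values were 0.925, 0.025 and 0.084. Given as a description on the same scale, the genes most like Axl were Wdr13 (r = 0.979), Hmox1 (0.972) and Lyrm9 (0.965). Those most like Fn1 were Ltbp1 (0.973), Slc41a2 (0.971) and Gstm7 (0.960), and those most like Vim were Zfp703 (0.971), Vcam1 (0.961) and Atp6v1f (0.949). For Zeb2 they were Alg10b (0.950), Atrx (0.947) and Ankfn1 (0.935), and for Snai2 Dnm1 (0.936), 2410006H16Rik (0.914) and Pde4b (0.900). For Cdh2 they were Phtf1os (0.909), Ripk2 (0.905) and Dcp1a (0.881), and for Cdh1 Sfswap (0.906), N4bp3 (0.887) and Mrpl9 (0.863).

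The surrounding programmes of phenotype switching were counted in lists. These lists were chosen with earlier results of these data known, so their counts are a description and cannot test for a shift of state. Of 20 genes of the undifferentiated melanoma state, 12 were tested, and 10 rose with the combination treatment, with a median log2 fold change of 0.57. The share of all genes called higher with the combination treatment was 17.0%. With SFN 6 rose, and with DAC 1 rose, the single gene of all lists to pass with DAC. That gene was Lif, which encodes a cytokine, at 0.782, 2.32 and 1.18 CPM in the control replicates, 2.24, 6.76 and 2.66 with DAC and 9.56, 23.6 and 7.14 CPM with the combination treatment. The log2 fold change of Lif was 1.43 with DAC (SE 0.21, edgeR adjusted p = 0.0134), 2.59 with SFN (SE 0.19, edgeR adjusted p = 2.88e-06) and 3.22 after both drugs (SE 0.19, edgeR adjusted p = 2.11e-07). The chromatin protein gene Hmga2 rose from 78.6 ± 17.3 to 157 ± 35.4 CPM with the combination treatment, by 1.00 on the log2 scale (SE 0.088, edgeR adjusted p = 2.95e-06). The receptor kinase gene Epha2 rose by 1.40 (edgeR adjusted p = 0.000522), Tnfrsf11b, which encodes osteoprotegerin, by 1.28 (edgeR adjusted p = 0.000997) and the kinase gene Nuak1 by 0.62 (edgeR adjusted p = 0.000121). Wnt5a, Ror2 and Egfr, known markers of invasive melanoma, had no count in any library.

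Of 16 genes of the melanocytic, differentiated state, 15 were tested, and with the combination treatment 2 rose and 5 fell, with a median log2 fold change of -0.14. The melanosome transporter gene Slc24a5 fell by 0.32 (edgeR adjusted p = 0.000481), Rab27a, of melanosome transport, by 0.36 (edgeR adjusted p = 0.000741) and the transcription factor gene Pax3 by 0.26 (edgeR adjusted p = 0.00181). The 2 that rose were Slc45a2, by 0.18 (edgeR adjusted p = 0.0236), and Mc1r, by 0.22 (edgeR adjusted p = 0.0253). Mitf, at 374 ± 56.9 CPM in control, was at -0.081 (edgeR adjusted p = 0.286), and Sox10, at 453 ± 49.1 CPM, was at 0.074 (edgeR adjusted p = 0.546).

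Of 26 genes of the TGF-beta pathway, a known inducer of EMT, 23 were tested, and 10 rose and 1 fell with the combination treatment, with a median log2 fold change of 0.25. With SFN 5 rose and 1 fell. Of all genes, 17.0% were called higher with the combination treatment and 8.27% with SFN. The ligand gene Tgfb3 rose by 0.74 (edgeR adjusted p = 4.48e-05), the receptor gene Tgfbr2 by 0.40 (edgeR adjusted p = 0.000287) and the signal transducer gene Smad3 by 0.32 (edgeR adjusted p = 0.00151). Ltbp1, which binds latent TGF-beta and was the gene most like Fn1, is on this list.

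**Figure D4:**
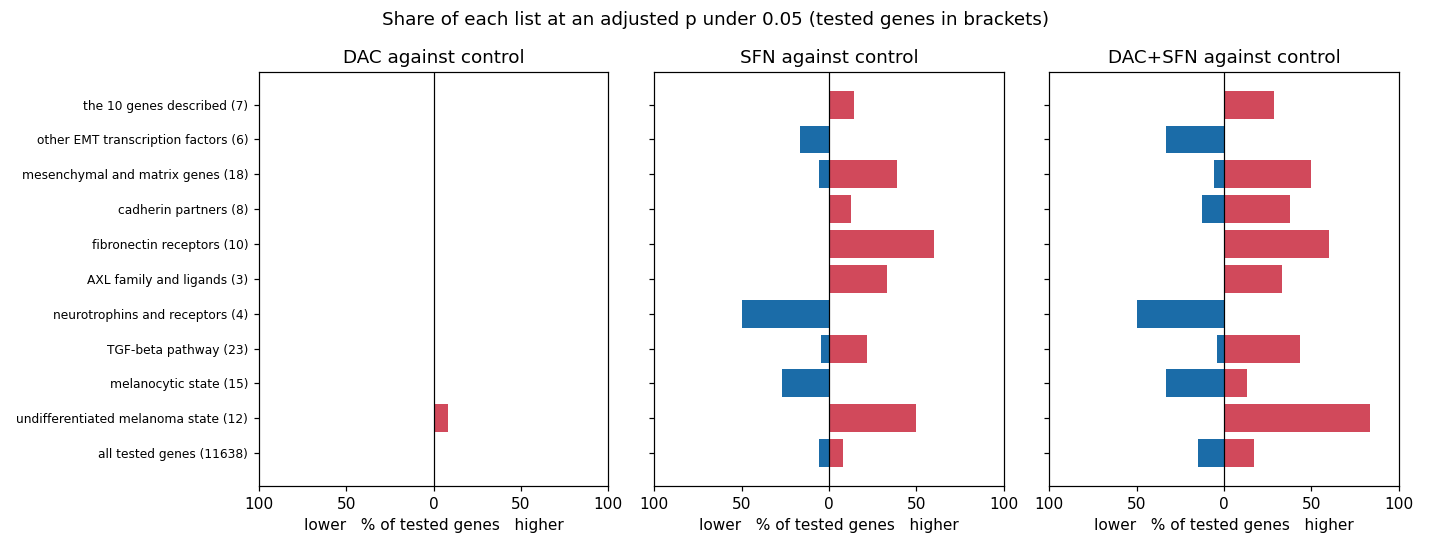
Percent of the tested genes of each list that rose (red, to the right) or fell (blue, to the left) at an adjusted p under 0.05 with DAC, SFN and DAC+SFN, beside all 11638 tested genes, with the number of tested genes in brackets. With DAC+SFN, 10 of 12 genes of the undifferentiated melanoma state rose, and of the 10 genes described 2 of 7 rose, beside 17.0% of all tested genes. The lists were chosen with earlier results of these data known.

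The sums of markers of other cell types were low beside the melanocytic sum of 23727 to 33029 CPM. The sum of 6 leukocyte markers lay at 2.36 to 4.78 CPM in control and at 8.31 to 11.3 CPM with the combination treatment, and the tested gene among them, Cd68, which encodes a lysosomal protein, rose by 1.55 (edgeR adjusted p = 1.98e-05). Ptprc, the defining leukocyte gene, reached 2 counts at most, and Adgre1 had none. The sum of 6 fibroblast markers lay at 21.2 to 28.9 CPM in control and at 13.9 to 19.9 CPM with the combination treatment. In control it was mostly Pdpn, at 22.3 ± 3.43 CPM, and it was not low beside Axl, at 11.96 to 29.0 CPM. Of the fibroblast markers, Pdpn fell by 0.59 with the combination treatment (edgeR adjusted p = 0.00133) and Pdgfra by 0.73 (edgeR adjusted p = 0.0249). Dcn had at most 1 count and Lum at most 3. The sum of 5 endothelial markers lay at 2.24 to 4.19 CPM in control and at 3.55 to 4.73 CPM with the combination treatment, and Vwf was at 0.15 (edgeR adjusted p = 0.663). The sum of 5 keratinocyte markers stayed at or under 0.091 CPM in every library. The part of the markers that moved in the results on the 10 genes was not tested.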

How the data were processed

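RNA of 12 B16F10 samples, 3 in each of 4 groups, was measured by sequencing. The study's methods give SFN at 5 µM in both SFN treatments, where the labels give 5 nM for the single treatment. The authors deposited read counts per gene symbol, not normalized. The submitters' processing notes name FastQC 0.11.7, Trimmomatic 0.38, TopHat2 2.1.1, HTSeq and mm10, and the methods state that only uniquely aligned reads were kept. The gene annotation is not given in the sources used here.

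Groups and replicate numbers came from the labels. The 11638 genes that reached 1 CPM in 3 libraries or more were scaled by TMM and tested with glmQLFTest of edgeR 4.0.16 (legacy fit, two-sided) in R 4.3.3, with all 12 samples in 1 model. The study's methods correct for a batch without naming it, and the replicate number was used as the block. The labels number the independent repeats alike in each group, and same-numbered samples deviated together (mean correlation 0.544 over 18 pairs). A call was a Benjamini-Hochberg adjusted p under 0.05, and a fold change above 2 gave a second call. SE is the log2 fold change over the square root of F, and log2 differences of single replicates carry a prior count of 2. Intervals from 0 counts use 3 counts and cover counting error only. Depth was 15880957 to 27291436 counts per library.

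The named genes were the 10 genes, of each other list the up to 3 with the smallest adjusted p for the combination treatment and any that also changed above 2-fold, and the 3 genes most like each tested gene. Genes named for having few or no counts, and Mitf, Sox10, Slc45a2 and Mc1r, were chosen after their values were seen. The members and lists were chosen with earlier results of these data known. Alternatives were DESeq2 1.42.0 (size factors, Wald test), no filter, no replicate block, only the groups compared, a prior count of 2, and each library left out. Leaving out a whole replicate number and the test among replicate numbers were added after seeing the data. The fit was tested on simulated data. Exon lengths and positions came from GENCODE M21 and promoters from RefSeq (GRCm38.p6), which uses the coordinates of mm10. Figures were drawn with matplotlib 3.10.9. The RT-PCR, protein and histone data of the study were not analysed here. A few genes that the naming rule selects are not reported.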

Additional observations from a re-analysis of the deposited data

How the results depend on the processing

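Of 875 alternative values for 42 results of single genes, 783 kept their direction and their side of the threshold, 25 lost the call, 12 gained one and 55 turned direction, and 0 of those 55 had been called. The number of called genes among the 7 with the combination treatment against control was 2, and it became 1 with the Wald test of DESeq2 (Axl). Against DAC it went from 1 to 2 with no filter on low counts (Axl, Fn1). In fits of only the groups compared it was 1 with DAC (Axl) and 1 for the combination against SFN (Axl). With a fold change above 2 as a second condition it was 0 in every comparison. Without the replicate block it was 0 for SFN, for the combination treatment and for the combination against DAC, and the log2 fold change of Fn1 with DAC was -0.0054. The cause was not tested.

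Estimates near 0 changed sign. Fn1 with DAC was at -0.00068 with the size factors of DESeq2, -0.0022 with its Wald test and -0.0033 with no filter. Cdh1 with DAC was at 0.0058 with the Wald test. With no filter, Snai2 was at -0.0040 and Cdh2 at -0.0011 with the combination treatment.

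With 1 library, or the 4 libraries of a replicate number, left out, the number of called genes ranged from 0 to 1 with SFN, from 1 to 3 with the combination treatment, from 0 to 2 for the combination against DAC and from 0 to 1 against SFN. Over the same fits, the log2 fold change with DAC ranged from -0.17 to 0.10 for Fn1, from -0.28 to 0.34 for Cdh1 and from -0.057 to 0.086 for Cdh2. With SFN it ranged from -0.069 to 0.37 for Fn1, from -0.35 to 0.23 for Cdh1 and from -0.047 to 0.10 for Cdh2. With the combination treatment it ranged from -0.081 to 0.098 for Snai2, from -0.073 to 0.056 for Zeb2 and from -0.053 to 0.091 for Cdh2. Against DAC the range was -0.0070 to 0.16 for Vim and -0.053 to 0.028 for Cdh2, and against SFN -0.035 to 0.11 for Vim and -0.049 to 0.014 for Cdh2. The interaction ranged from -0.18 to 0.025 for Vim, from -0.10 to 0.062 for Cdh2 and from -0.22 to 0.13 for Axl. Counts of 13 to 31 per library limit Cdh1, and Zeb1, Ngfr and Twist1 had too few counts for a change to be detectable.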
